A study of Mus musculus with 6 samples.

Results

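Lim2 and its relatives Emp1, Emp2, Emp3 and Pmp22 encode small proteins that cross the membrane with a bundle of helices, the PMP22/EMP/MP20 family. In the lens, Lim2 (also called MP20) is one of the most abundant proteins of the fibre cell membrane, where it sits beside the water channel aquaporin 0, and mutations of the gene cause cataract in mice and humans. Pmp22 is best known from the myelin of Schwann cells, where changes of its dose or sequence cause inherited neuropathy, and the epithelial membrane proteins Emp1, Emp2 and Emp3 are found in many epithelia, in fibroblasts and in blood cells.

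The family was followed in RNA of whole lenses from mice aged 3 months. Knock-in mice had the W151C allele, a G to C point mutation at codon 151 of the βB2-crystallin gene Crybb2 that replaces tryptophan with cysteine, introduced with CRISPR/Cas9, and the controls were wild type. The knock-in gave 3 arrays, numbered 1, 2 and 4 in the labels, and the wild type 3, numbered 1 to 3. All were single-colour Agilent arrays of Cy3-labelled RNA. The labels used here do not give the strain, the sex, whether both alleles were edited, or how many animals or lenses made up an array. Members were found by the RefSeq accession of each probe, which gave 7 of 39429 non-control probes: 1 probe each for Lim2 (NM_177693), Emp1 (NM_010128) and Emp3 (NM_010129), and 2 each for Emp2 (NM_007929) and Pmp22 (NM_008885). The symbol Lim2 is also an old synonym of the homeobox gene Lhx5, whose probes were not taken. All 5 genes passed the filter on dim probes, Emp1 through its knock-in arrays alone. The family was chosen from measured values of this same comparison, the lower Lim2 signal and the higher Emp1 signal in knock-in lenses. The members' differences are therefore given as descriptions, with no p-value.

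The arrays differed in ways that touch the values below. All knock-in arrays shared a scan, taken here as slide 1, wild type arrays 1 and 2 shared slide 2, and wild type array 3 was on slide 3, scanned on another day. Slide and genotype cannot be told apart, because no slide held both. The 75th percentile of the signal lay between 167 and 201 on the knock-in arrays and at 142, 120 and 698 on wild type arrays 1, 2 and 3. Knock-in array 4 stood apart by genes of retinal photoreceptors: the summed scaled signal of 10 retinal markers was 67.5 there, while the other knock-in arrays had 2.88 and 3.22 and the wild type arrays 0.572 to 0.794. The markers of the lens itself were present: 17 of 18 fibre cell markers with a probe were well above background on all arrays of each genotype. The number of arrays limits the precision.

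To show the sequence next to the 2 members whose knock-in and wild type arrays lay furthest apart, the 250 bases before each annotated start of Lim2 and Emp1 are printed from RefSeq, build GRCm38.p6, read 5′ to 3′ along the gene. Capitals mark matches on either strand. The letters searched were TGANTCA for AP-1, TGCTGA for the core of a Maf site, ACAAAG for a first form and ACAATG for a second form of the Sox site, GAANNTTC for the heat shock element, TATAAA for the TATA box, GGGCGG for the GC box and TGATGNAA for the CHOP-ATF element. No match in these windows overlapped another.
Lim2, chr7:43429849-43430098, plus strand: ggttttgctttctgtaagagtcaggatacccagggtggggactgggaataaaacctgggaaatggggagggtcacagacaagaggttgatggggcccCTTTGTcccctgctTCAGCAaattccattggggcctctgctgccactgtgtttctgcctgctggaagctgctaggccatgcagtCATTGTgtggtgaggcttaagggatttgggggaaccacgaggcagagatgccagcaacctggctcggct
Emp1 first start, chr6:135362681-135362930, plus strand: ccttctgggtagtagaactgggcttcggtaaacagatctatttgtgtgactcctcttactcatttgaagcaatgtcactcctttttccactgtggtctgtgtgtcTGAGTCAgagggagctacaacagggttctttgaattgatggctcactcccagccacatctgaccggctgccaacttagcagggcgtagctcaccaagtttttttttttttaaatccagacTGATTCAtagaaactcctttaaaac
Emp1 second start, chr6:135367243-135367492, plus strand: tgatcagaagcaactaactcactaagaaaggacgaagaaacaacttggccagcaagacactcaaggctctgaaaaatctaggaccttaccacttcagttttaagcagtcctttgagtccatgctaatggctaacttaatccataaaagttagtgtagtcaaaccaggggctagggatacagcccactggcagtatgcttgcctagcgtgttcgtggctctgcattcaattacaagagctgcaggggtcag
The Lim2 window held 1 Maf core and 2 Sox matches, 1 of each form, all on the strand opposite to the gene, and the first Emp1 window held 2 AP-1 matches. No searched letters were found before the second Emp1 start. Over 32817 windows of the same length, 16.1% held the Maf core, 25.2% a Sox match of either form and 6.75% an AP-1 match. The AP-1 letters were put on the list after the Emp1 window had been seen, and a match describes the letters only. Among the other members, 2 of 4 Pmp22 windows and the Emp2 window held GC boxes, which 32.7% of all windows hold, and 1 of 2 Emp3 windows held a TATA box, which 12.4% hold. A further Pmp22 window held the Maf core, on the strand opposite to the gene as in Lim2.

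Lim2 transcript was lower in the knock-in lenses on every array. After each array was scaled to its 75th percentile, the log2 signal of Lim2 reached 1.25, 0.99 and 0.52 on knock-in arrays 1, 2 and 4, compared with 3.30, 3.32 and 3.19 on wild type arrays 1, 2 and 3. The groups did not overlap: the highest knock-in array lay 1.94 log2 units under the lowest wild type array. The mean was 0.92 ± 0.37 in knock-in and 3.27 ± 0.07 in wild type lenses (SD, n = 3 each), a difference of -2.35 (SE 0.21 in the fit across all genes), or 5.11-fold lower in the knock-in. Before scaling, the processed signal was 399, 398 and 270 scanner units on the knock-in arrays and 1402, 1201 and 6379 on the wild type arrays. All 6 spots were well above background, none was saturated, and the scanner software gave them errors of 27.1 to 40.2 units in knock-in and 120.2 to 638 units in wild type. Lim2 ranked 152 from the lowest difference among 12785 genes tested.

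The low value on knock-in array 4, the array with the retinal signal, widened the knock-in spread. Without it the difference was -2.15, within the shared scan day it was -2.39, and over 16 other settings it lay between -2.52 and -2.02. The fibre cell markers moved the same way as Lim2. Their summed scaled signal was 813 to 830 on the knock-in arrays and 1315 to 2966 on the wild type arrays, with 10 of 17 tested markers called lower, as were 12.6% of all genes, and 1 higher, as were 13.3%. When slide was a random block, 4 of the 10 falls held, those of Birc7, Lenep, Lctl and Cdkn1c, and the rise of Tmod1 did not. That fit called 2.02% of all genes lower and 2.83% higher. With the scan day as a block 13 of the 17 were called lower, as were 24.0% of all genes, and 1 higher, as were 19.6%. The part of these markers in the Lim2 difference was not tested. In whole lenses, fewer fibre cells and less Lim2 RNA per cell cannot be told apart.

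**Figure D1:**
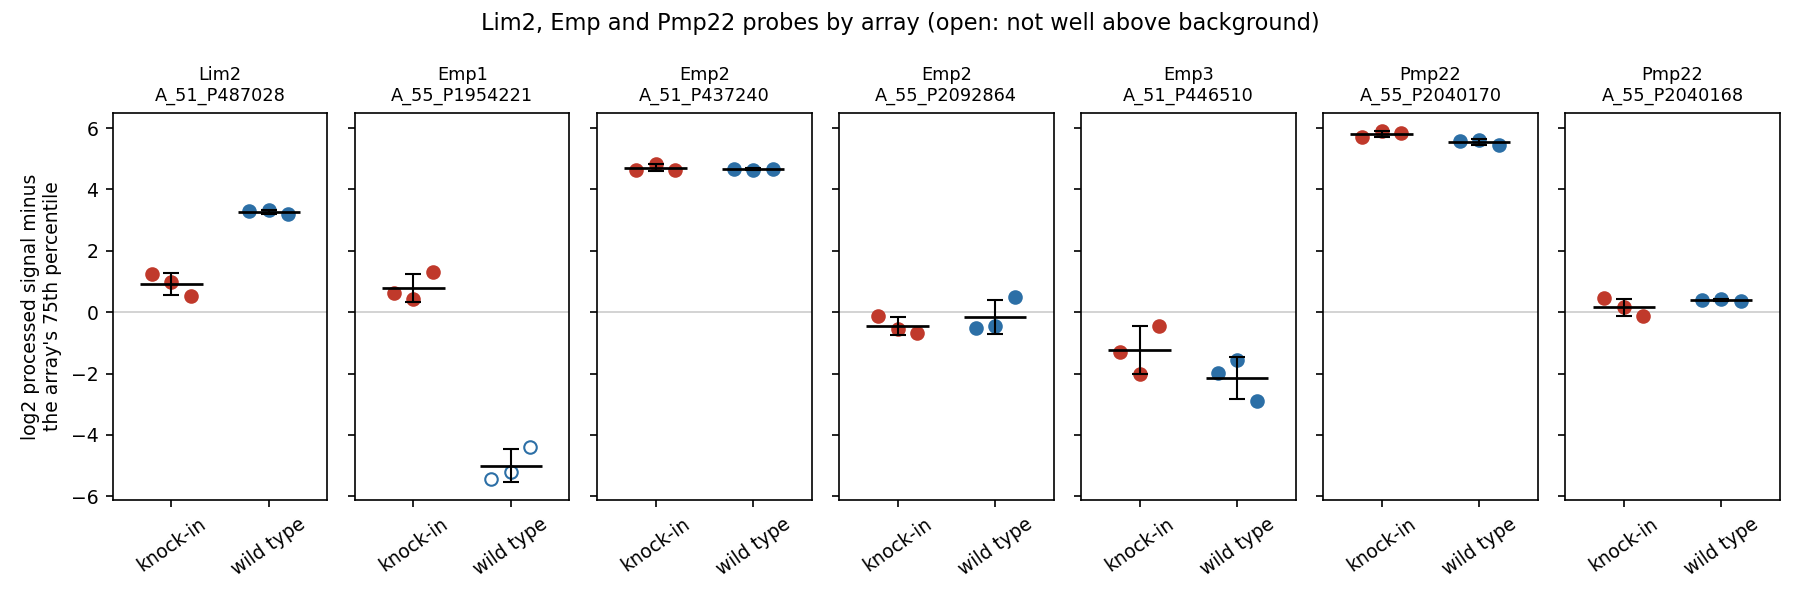
Log2 processed signal minus the array's 75th percentile (y axis) for each of the 7 probes, by genotype. Each point is 1 array (in the order of replicate numbers from left to right), open points were not well above background, and lines and bars give the mean and SD of 3 arrays. Lim2 lies at 0.52 to 1.25 in knock-in and 3.19 to 3.32 in wild type, Emp1 at 0.44 to 1.32 and -5.44 to -4.41, and the probes of the other members lie close together or overlap.

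Emp1 showed the opposite pattern and was detected in the knock-in lenses alone. Emp1 is a membrane protein of epithelia that was first described in squamous and tumour cells. Its log2 signal reached 0.62, 0.44 and 1.32 on knock-in arrays 1, 2 and 4, compared with -5.44, -5.20 and -4.41 on wild type arrays 1, 2 and 3. No wild type spot was well above background, and every knock-in spot was. In scanner units the processed signal was 257, 273 and 469 in knock-in and 3.29, 3.28 and 32.9 in wild type, and the software's own error of those wild type signals was 2.34, 2.20 and 7.76. The wild type values therefore give only a bound. Set, on each wild type array, against the dimmest probe that was well above background or the Emp1 spot itself, whichever was brighter, the knock-in mean of Emp1 was higher by at least 28.5-fold. That dimmest probe is not a detection limit. On wild type array 3 it lay at -4.44, and the Emp1 spot, not well above background, at -4.41. Each fold given below as at least is a bound against a reference of this kind only. The fitted difference of the measured values, 5.81 (SE 0.34, means 0.79 ± 0.46 in knock-in and -5.01 ± 0.54 in wild type, SD, n = 3 each), depends on how the background is treated: it was 2.63 with a normexp background, which adds an offset of 50 to every spot.

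Emp1 was highest on knock-in array 4. Without that array the fitted difference was 5.54, and the retinal markers summed to 2.88 and 3.22 on the other knock-in arrays, above the 0.572 to 0.794 of wild type. Their part in the Emp1 difference was not tested. Lens epithelial markers summed to 88.6 to 99.1 in knock-in and 70.2 to 80.5 in wild type lenses. Of 12 tested, 2 were called higher, as were 13.3% of all genes, and 3 lower, as were 12.6%. The rises were Sulf1, an enzyme that trims heparan sulphate, and Pdpn, podoplanin, and both held when slide was a random block. The falls were Foxe3 and Pitx3, transcription factors of the lens, and Gas6, a growth factor, and none of them held (adjusted p = 0.158, 0.276 and 0.236). The higher sum came from Pdpn: without it, a choice made after seeing the data, the list summed to 47.6 to 56.0 in knock-in and 56.4 to 66.4 in wild type, and the part of these markers in the Emp1 difference was not tested. Of the 9 markers of corneal and conjunctival epithelium, 5 were well above background on all arrays of each genotype, and Krt12, Dsg1a and Krt4 on no array. The list summed to 75.9 to 84.7 in knock-in and 64.0 to 90.3 in wild type. Aldh3a1 alone gave 69.9 to 79.7 of the sum in knock-in and 58.0 to 86.8 in wild type. The part of these markers in the Emp1 difference was not tested. For this list limma passed 0 of 5 tested (1 at an unadjusted p under 0.05), where 25.9% of all genes passed. With the scan day as a block, where 43.5% of all genes were called, Krt15 was called higher, at 2.10 (adjusted p = 0.000836) and 1.39 without the block.

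**Figure D2:**
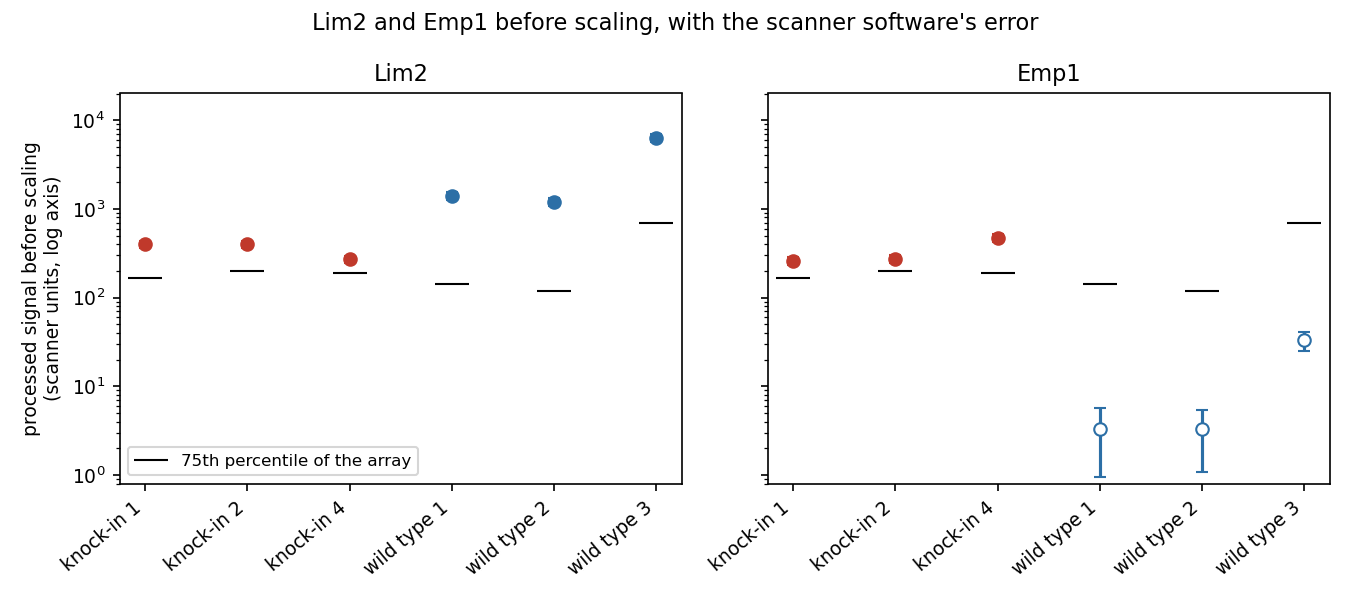
Processed signal of the Lim2 and Emp1 spots before scaling (y axis, log scale, scanner units) on each array, with the error the scanner software gives (bars), open points for spots not well above background, and a black dash at the array's 75th percentile. Wild type array 3 is the brightest array, with a 75th percentile of 698, and its Emp1 signal of 32.9 lies far under it, while Emp1 lies above the dash on all 3 knock-in arrays.

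The differences of Emp2 and Pmp22 were small. Emp2, which in human and mouse cells has been tied to integrins, caveolin and focal adhesion kinase, gave 4.63, 4.84 and 4.64 on knock-in arrays 1, 2 and 4 and 4.68, 4.63 and 4.67 on wild type arrays 1, 2 and 3 with its brighter probe. The groups overlapped, and the difference was 0.05 (SE 0.15). The dimmer Emp2 probe gave -0.11, -0.54 and -0.67 in knock-in and -0.51, -0.45 and 0.50 in wild type. It too overlapped, and only wild type array 3 stood above the rest, so that its difference of -0.29 (SE 0.31) became 0.04 within the shared scan day.

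Pmp22 gave 5.72, 5.92 and 5.83 in knock-in and 5.59, 5.61 and 5.44 in wild type with its brighter probe. These groups did not overlap, by a margin of 0.12, and the difference was 0.27 (SE 0.15). The second Pmp22 probe gave 0.45, 0.15 and -0.12 in knock-in and 0.38, 0.43 and 0.36 in wild type, overlapping, with a difference of -0.24 (SE 0.19). The 2 probes thus disagreed in sign, and the mean of both left a difference of 0.020. Quantile normalization raised the brighter probe's difference to 0.64. Pmp22 is a myelin protein, and of the 8 myelin markers Mbp and Cnp were above background on no array. The list's summed signal was 5.41 to 7.05 in knock-in and 13.7 to 17.6 in wild type lenses. Prx alone gave 3.54 to 5.40 of the sum in knock-in and 12.4 to 16.6 in wild type. Without Prx, a choice made after seeing the data, the list summed to 1.46 to 1.87 in knock-in and 0.977 to 1.49 in wild type. Of the 5 tested, S100b was called higher, as were 13.3% of all genes, and Prx lower, as were 12.6%. S100b passed the filter through its knock-in arrays alone, so its call rests on wild type values that were not measured. Prx was not called when slide was a random block (adjusted p = 0.0525). The part of these markers in the Pmp22 values was not tested.

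Emp3, known from leukocytes and fibroblasts as well as epithelia, was dim and spread widely in both genotypes. Its log2 signal reached -1.28, -2.01 and -0.44 on knock-in arrays 1, 2 and 4, compared with -1.99, -1.57 and -2.90 on wild type arrays 1, 2 and 3. The highest value came from knock-in array 4, which carried the retinal signal, and the lowest from wild type array 3, which was scanned on another day. The groups overlapped, and the difference of 0.91 (SE 0.47) was 0.51 without knock-in array 4 and 0.54 without wild type array 3. Leukocyte markers summed to 20.3 on knock-in array 1, 10.9 and 12.1 on the other knock-in arrays, and 13.9 to 43.0 in wild type. Of 10 tested, 2 were called higher, as were 13.3% of all genes, and 1 lower, as were 12.6%. The fall was that of Itgam, an integrin chain of myeloid cells, which alone gave 6.07 to 10.04 of the sum in knock-in and 11.4 to 37.0 in wild type. The rises were C1qc, a complement subunit, at 4.39, and Tyrobp, a signalling adaptor, by at least 5.11-fold. C1qc was well above background on only 1 wild type array and Tyrobp on none, so their wild type levels were for the most part not measured. The complement subunits C1qa and C1qb differed by 2.02 (SE 0.71) and -0.86 (SE 0.34) and were not called. All 3 calls were lost when slide was a random block (adjusted p = 0.238, 0.0919 and 0.0693). Fibroblast markers summed to 17.3 to 24.3 in knock-in and 18.2 to 19.7 in wild type. Of 4 tested, 1 was called higher, Col1a2, as were 13.3% of all genes. This call was lost when slide was a random block (adjusted p = 0.139) and passed with the scan day as a block (adjusted p = 0.0144). The part of these markers in the Emp3 values was not tested.

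Read as a family, the members did not move together. The limma fit called 2 of 5 after Benjamini-Hochberg adjustment, where 25.9% of all genes tested were called: Emp1 higher, as were 13.3% of all genes, and Lim2 lower, as were 12.6%. With slide as a random block the calls were again Emp1 higher (2.83% of all genes) and Lim2 lower (2.02%), and a block for scan day gave Emp1 higher (19.6%) and Lim2 lower (24.0%). The arrays of the genotypes did not overlap for 3 of 5, where 45.9% of all genes did not overlap. These were Emp1 and Pmp22, higher as were 22.7% of all genes, and Lim2, lower as were 23.1%. Since the comparison was known when the family was chosen, nothing is read from these counts. The median of the 5 differences was 0.27, beside -0.04 over all genes.

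**Figure D3:**
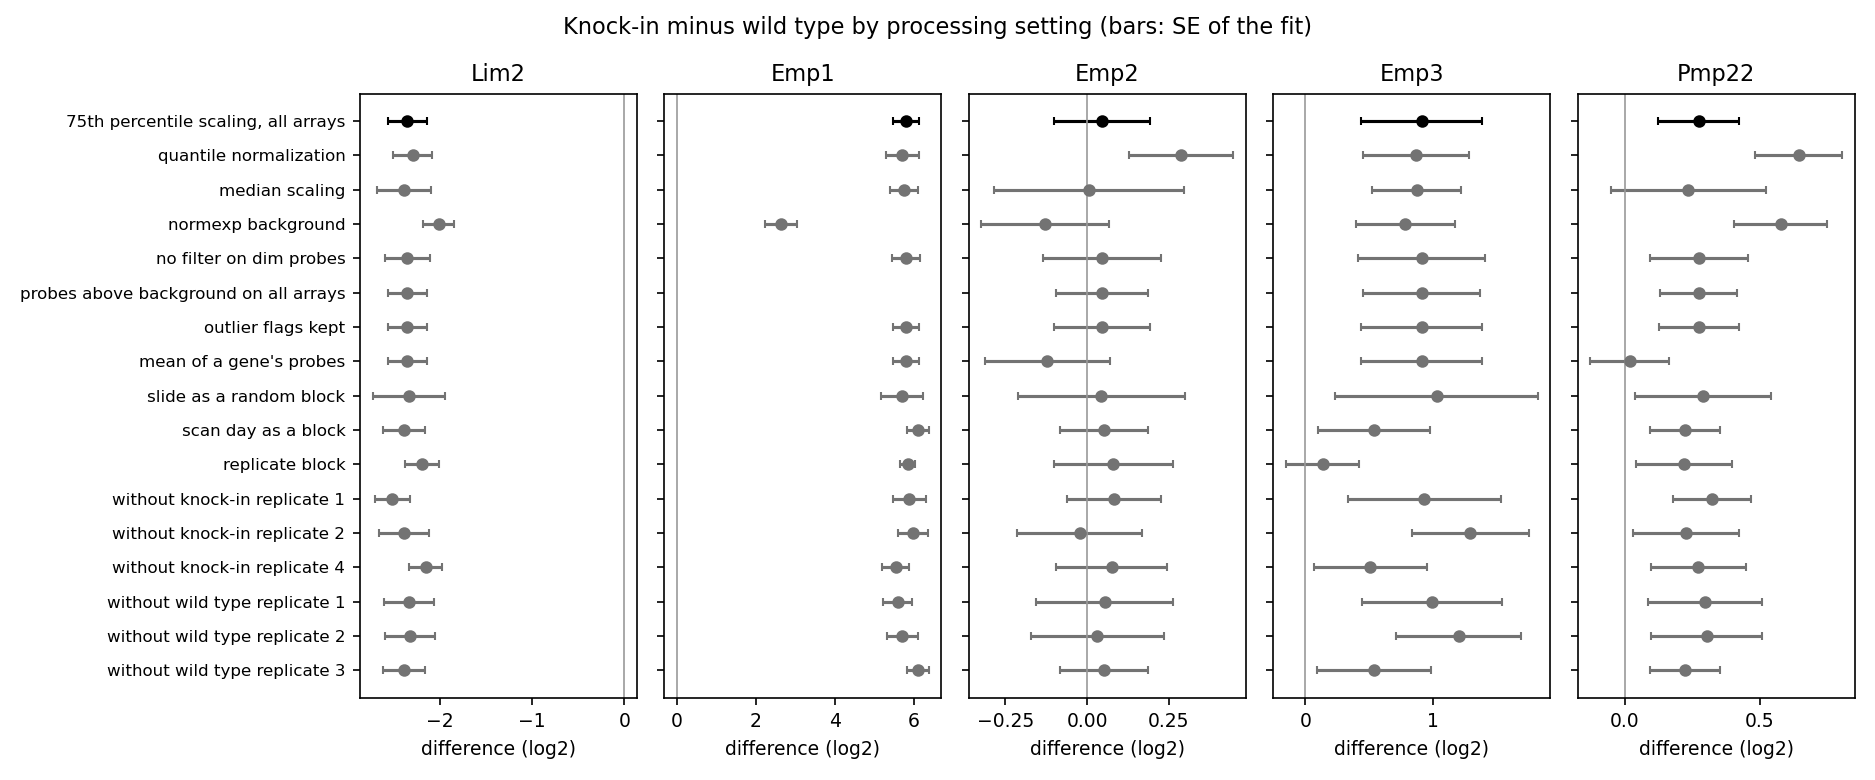
Difference between knock-in and wild type (x axis, log2, bars are the SE of the fit) for each member under the setting used in the text (black) and 16 alternatives (grey, 15 for Emp1), each panel on its own scale. Lim2 stays between -2.52 and -2.02 and Emp1 between 2.63 and 6.11, Emp2 lies on both sides of 0, and Emp3 and Pmp22 are above 0 throughout and reach down to 0.13 and 0.020.

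The wider superfamily that shares this fold holds the claudins, which seal tight junctions, and smaller groups such as the γ subunits of calcium channels and AMPA receptors. Of 45 listed genes, 43 had a probe and 16 were bright enough to test. The fit called 4 of these 16, 1 higher and 3 lower, a share of 25% beside 25.9% of all genes, and the median difference was -0.35. Tmem178, a membrane protein of this superfamily, fell most: it gave -2.26, -2.20 and -1.67 on knock-in arrays 1, 2 and 4 and 1.51, 1.40 and 1.61 on wild type arrays 1, 2 and 3. The groups lay far apart, with a difference of -3.55 (SE 0.20, limma adjusted p = 0.000144) that passed under all 16 other settings. Cldn9, a claudin, gave 1.23, 1.06 and 0.88 in knock-in and 4.36, 4.57 and 2.46 in wild type. It fell by 2.74 on the log2 scale (SE 0.53, limma adjusted p = 0.0111), with wild type array 3 nearest to the knock-in arrays, and missed the threshold once slide was a random block (adjusted p = 0.0791).

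Cldn23, whose knock-in spots were all not well above background, was lower there by at least 1.20-fold (limma adjusted p = 0.0459). It passed the filter through its wild type arrays alone, so this p-value rests on knock-in values that were not measured. With normexp its difference turned to 0.19 (adjusted p = 0.806). The adjusted p ranged from 0.00396 to 0.806 over the settings, and the call was lost on leaving out any array but wild type array 3. The rise was that of Tmem47, a protein of cell junctions, which gave -0.27, -0.17 and -0.18 in knock-in and -1.04, -1.22 and -1.33 in wild type. Its groups did not overlap, and the difference of 0.99 (SE 0.15, limma adjusted p = 0.00503) was not called when slide was a random block (adjusted p = 0.0748). Perp, a desmosomal protein that p53 induces, differed by 0.22 (SE 0.14) and did not pass. The count of calls changed with wild type array 3: without it 10 superfamily genes were called, 1 higher and 9 lower, of 17 tested, where 43.3% of all genes were called.

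Proteins reported to bind or work with the EMP and PMP22 proteins were looked at next, among them integrins, caveolins, the ATP-gated channel P2X7 and the chaperones that hold PMP22 in the endoplasmic reticulum. Of 18 listed genes 16 were tested and 4 called, 2 higher and 2 lower, again 25% beside 25.9%, with a median of -0.03. P2rx7, whose channel has been reported to bind EMP proteins in human cells, gave -2.36, -2.34 and -1.91 on knock-in arrays 1, 2 and 4 and -6.00, -5.90 and -6.73 on wild type arrays 1, 2 and 3. It was well above background on all knock-in arrays and on no wild type array, as was Emp1, and its knock-in level was higher by at least 3.59-fold (limma adjusted p = 0.000225).

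Cav2, caveolin-2, a coat protein of membrane caveolae, gave -2.06, -2.06 and -2.24 in knock-in and -5.72, -5.56 and -5.60 in wild type. None of its wild type spots was well above background, and its knock-in level was higher by at least 3.81-fold (limma adjusted p = 4.26e-05). Both rises held when slide was a random block, at an adjusted p of 0.00246 for P2rx7 and 0.000991 for Cav2, and neither passed with the normexp background (adjusted p = 0.234 and 0.18). P2rx7 and Cav2 passed the filter on dim probes through their knock-in arrays alone. Their p-values thus rest on wild type values that were not measured. When probes had to be above background on all arrays, neither was tested, and of 12 tested partners 2 were called, both lower. In that setting 26.3% of all genes were called, with 1226 of 10664 called lower.

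Itga6, the integrin α6 chain that has been found in a complex with PMP22 in Schwann cells, gave 3.33, 3.97 and 3.89 in knock-in and 4.84, 4.75 and 4.84 in wild type. It fell by 1.08 on the log2 scale (SE 0.21, limma adjusted p = 0.0104), with no overlap, and was not called when slide was a random block (adjusted p = 0.16). Its partner chains Itgb4 and Itgb1 differed by 0.69 (SE 0.30) and 0.81 (SE 0.29) and did not pass. With the scan day as a block Itgb1 was called higher, at 1.08 (adjusted p = 0.0132). Tjp1, the junction scaffold ZO-1, fell by 0.83 (SE 0.25, limma adjusted p = 0.0477), a call that was lost on leaving out any array but knock-in array 4, with adjusted p from 0.0114 to 0.363 over the settings. Canx and Rer1, which retain PMP22 in the early secretory pathway, differed by 0.25 (SE 0.17) and 0.11 (SE 0.17) and did not pass.

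**Figure D4:**
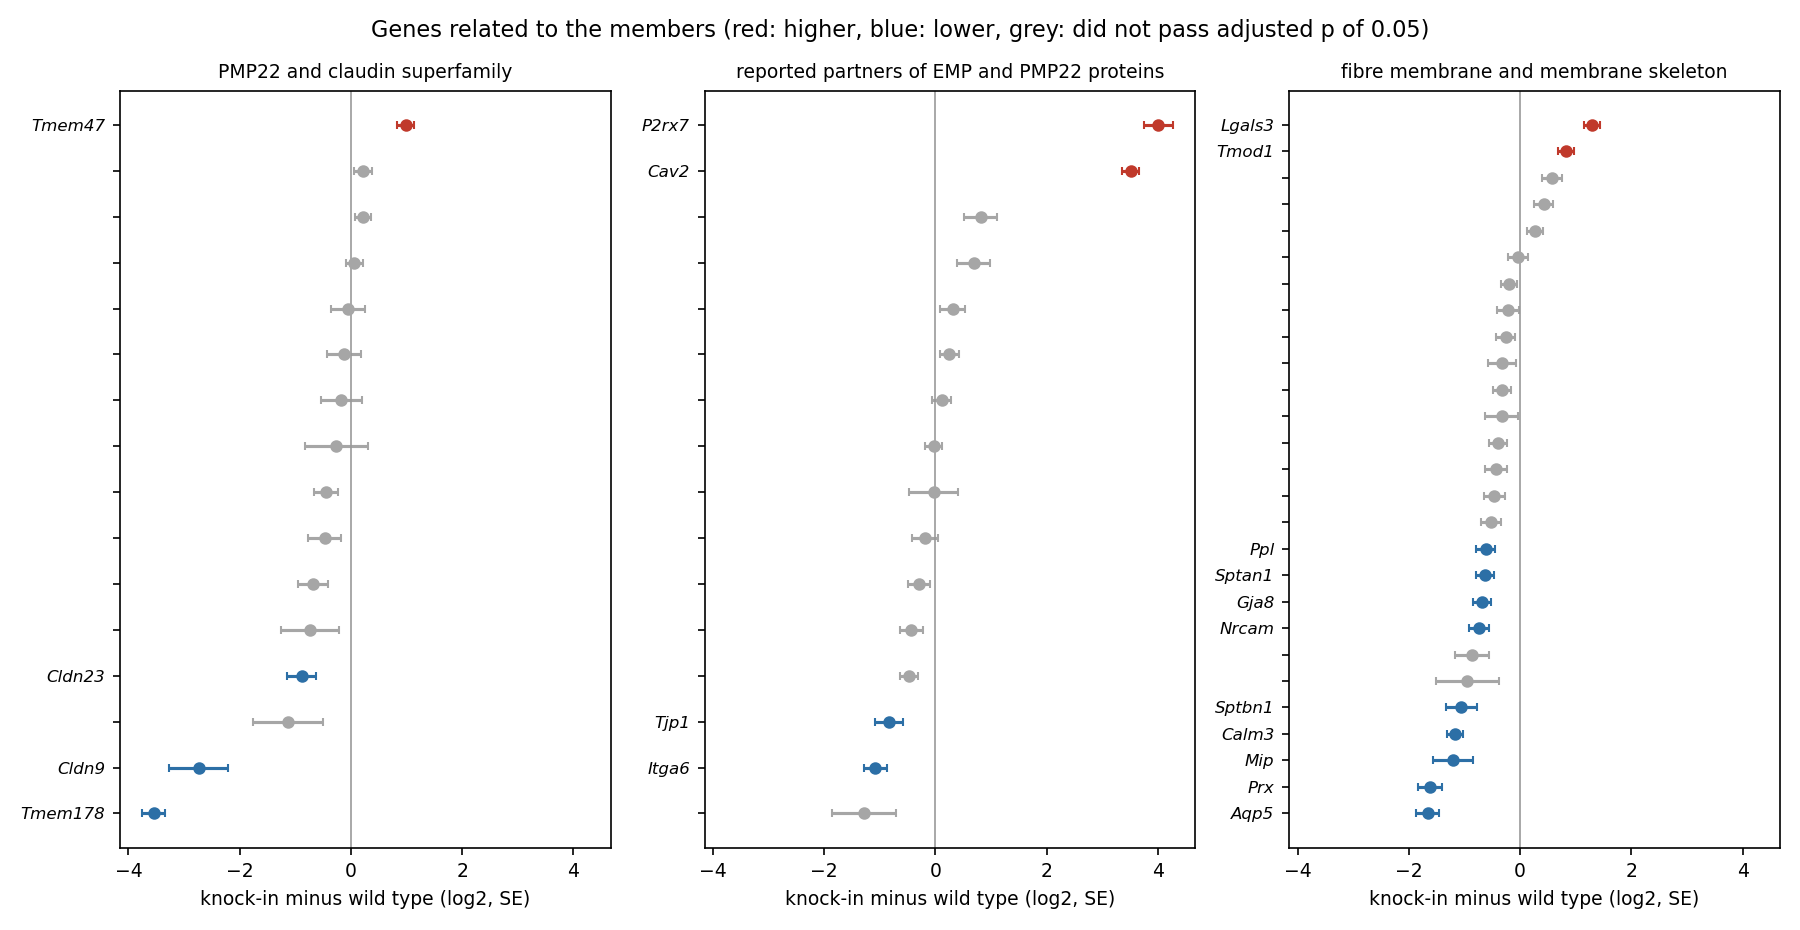
Difference between knock-in and wild type (x axis, log2, bars are the SE of the fit) for every tested gene of the 3 lists related to the members. Red points were called higher and blue points lower in knock-in at an adjusted p of 0.05, grey points were not called, and the called genes are named on the y axis. Tmem178 lies at -3.55 and Cldn9 at -2.74. P2rx7 is plotted at 4.00 and Cav2 at 3.51, but with no wild type spot well above background their rises have only the bounds of 3.59-fold and 3.81-fold.

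In the fibre membrane and its skeleton, the setting in which Lim2 works, 11 of 27 tested genes were called, 9 lower and 2 higher. The 9 falls are a share of 33.3%, where 12.6% of all genes were called lower, and the median difference was -0.43. Aqp5, a water channel of the lens, fell most, with 1.85, 1.97 and 2.04 on knock-in arrays 1, 2 and 4 and 3.39, 3.47 and 3.99 on wild type arrays 1, 2 and 3. Its groups did not overlap, and the difference was -1.66 (SE 0.20, limma adjusted p = 0.00184). Prx, periaxin, a scaffold of fibre and Schwann cell membranes, gave 1.82, 2.43 and 2.29 in knock-in and 3.71, 3.63 and 4.05 in wild type, a fall of 1.61 on the log2 scale (SE 0.22, limma adjusted p = 0.00298) that was not called when slide was a random block (adjusted p = 0.0525). Mip, aquaporin 0 itself, fell by 1.21 on the log2 scale (SE 0.35, limma adjusted p = 0.045), with 6.94, 6.92 and 6.81 in knock-in and 8.45, 8.60 and 7.24 in wild type. This call was lost on leaving out any array but wild type array 3, and its adjusted p ranged from 0.000549 to 0.238 over the settings.

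Both proteins reported to bind Lim2 protein in lens membranes of cattle or sheep, galectin-3 and calmodulin, are on this list. Lgals3, which encodes galectin-3, gave 6.79, 6.83 and 6.62 in knock-in and 5.43, 5.48 and 5.45 in wild type. It rose by 1.29 (SE 0.15, limma adjusted p = 0.00145), with no overlap, and passed under all 16 other settings. Of the genes for calmodulin, Calm3 gave 5.15, 5.15 and 5.12 in knock-in and 6.24, 6.33 and 6.37 in wild type. It fell by 1.17 on the log2 scale (SE 0.14, limma adjusted p = 0.00178) and also passed under all 16 settings, while Calm2 at 0.26 (SE 0.14) did not pass. The other rise was that of Tmod1, which caps actin filaments in the fibre membrane skeleton, at 0.83 (SE 0.14, limma adjusted p = 0.00754), not called when slide was a random block (adjusted p = 0.113) or with median scaling (adjusted p = 0.0567). With slide as a block 3 of 27 genes were called, where 4.85% of all genes were. Leaving out knock-in array 1, 2 or 4 gave 7, 5 and 7 calls, and leaving out wild type array 1, 2 or 3 gave 5, 5 and 14. Over all genes, the fits without those knock-in arrays called 2531, 1538 and 2385. The fits without those wild type arrays called 1699, 1862 and 5661, and the fit with all arrays 3312. The list counts are to be read beside these.

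**Figure D5:**
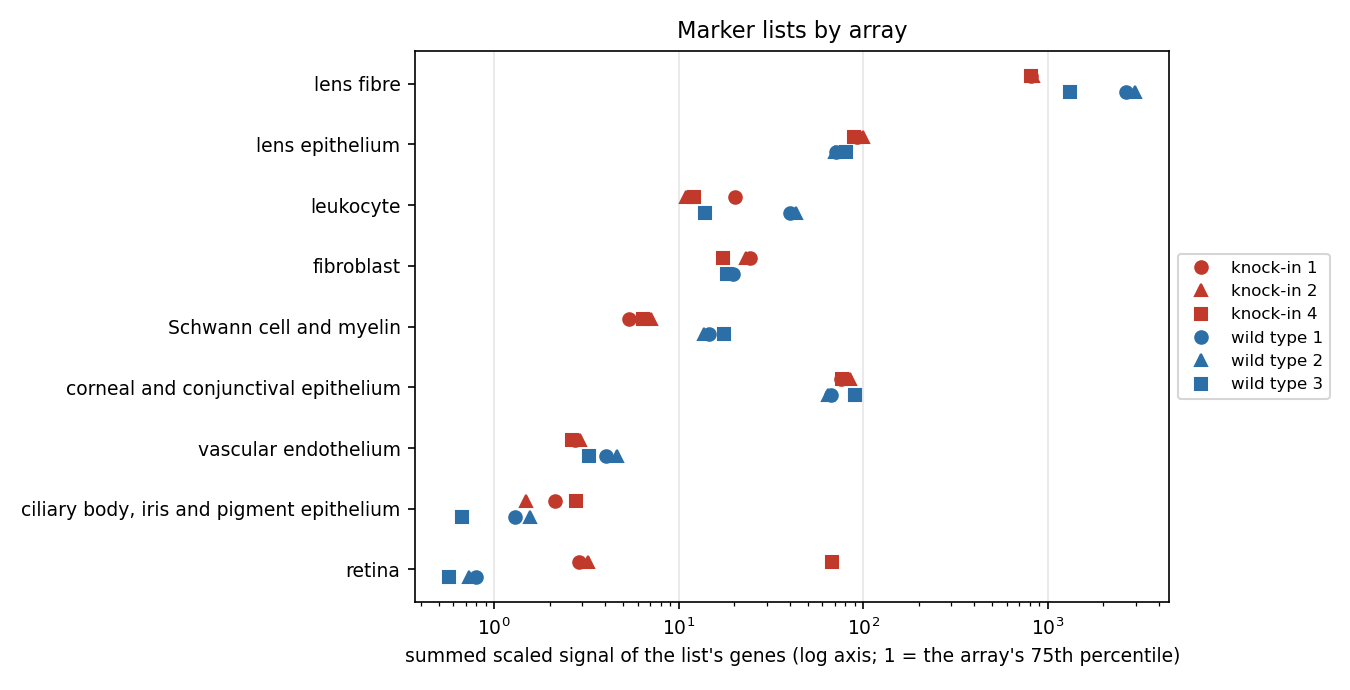
Summed scaled signal (x axis, log scale, where 1 equals the array's 75th percentile) of the marker genes of each cell type on each array, knock-in in red above wild type in blue, with a symbol for each array. The retinal markers of knock-in array 4, at 67.5, stand apart from 0.572 to 3.22 on the other arrays, and the fibre markers are at 813 to 830 in knock-in and 1315 to 2966 in wild type.

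Genes with a profile like that of Lim2 or Emp1 over the 6 arrays were found by the root mean square distance between profiles, each centred on its own mean. Closest to Lim2 were Plcb1, a phospholipase C, at 0.114 log2 units, Washc3, a subunit of the WASH complex of endosomes, at 0.133, Ccdc13 at 0.168 and the long non-coding RNA Snhg12 at 0.174. Washc3 gave 2.83, 2.69 and 2.39 on the knock-in arrays and 4.81, 4.81 and 4.75 on the wild type arrays, with the same order of knock-in arrays as Lim2. For Plcb1 and Ccdc13 no knock-in spot was well above background, so their low end is not measured. The 4 profiles nearest to that of Emp1 were those of Cdkn1a, the cell cycle inhibitor p21, St8sia5, a sialyltransferase, Trib3, a pseudokinase of the stress response, and Tgfbi, a protein of the extracellular matrix. Emp1 and Cdkn1a were above background on no wild type array, so these distances rest in part on unmeasured wild type values and are not given an order. The likeness is a description over 6 arrays of 2 groups, which any gene that differs by a like amount will share.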

How the data were processed

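Cy3 intensities of single-colour Agilent arrays were analysed. Per the file headers, the deposited processed signal was background-subtracted in Feature Extraction 11.0.1.1; the submitters' processing notes name version 9.1. The intensities were deposited without scaling between arrays, and the probe design refers to mm9. Log2 processed signals were scaled to each array's 75th percentile over 43020 non-control spots, outlier-flagged spots were dropped and spots of a probe averaged. Probes well above background (at least 50% of spots) on all arrays of a genotype were kept, 21076 of 39429. RefSeq accessions in a GRCm38.p6 table named 27234 probes, and the brightest probe represented each of 12785 genes, 3 of them with a missing array. Differences come from limma 3.58.1 in R 4.3.3 (lmFit, eBayes, 4 residual degrees of freedom), knock-in minus wild type, adjusted by Benjamini-Hochberg with a threshold of 0.05; the procedure was tested on simulated data. A log2 difference of 1 is 2-fold.

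Members and lists were chosen with earlier results of these data known; the 3 related lists and 9 marker lists come from general knowledge. Named genes are the members, up to 4 higher and 4 lower called genes per related list whose arrays do not overlap, up to 2 called genes per marker list, and the 4 genes most like Lim2 and Emp1; others beside them were named after their values were seen. Arrays of a genotype correlated at 0.953 to 0.996. The labels number replicates without naming animals, so the spread behind each p-value is that of the arrays and may be partly technical. Alternatives covered scaling, background (normexp on median signals, offset 50), filter, flags, probes, slide, day, replicate number and leaving out each array. A few list genes are not reported here by name.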

Additional observations from a re-analysis of the deposited data

How the results depend on the processing

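Over 16 alternatives (15 for Emp1, which has no value when probes must be above background on all arrays), Lim2 stayed negative and Emp1, Emp3 and Pmp22 positive, and Emp2 changed sign in 3. All genes called numbered 3312 (1697 higher, 1615 lower), 2798 with median scaling (1143 and 1655), 1433 with normexp, 2002 without a filter, 5566 when the scan day was a block and 620 when slide was a random one. As a share of all genes tested, calls were 25.9%, 21.9% with median scaling, 11.2% with normexp and 9.7% without a filter. The share was 26.3% with probes above background everywhere, 43.5% with day and 4.85% with slide as a block. The list counts below are to be read beside these shares. Superfamily calls were 4, 1 with slide and 10 with day as a block. Partner calls were 4, 1 with normexp, 2 with probes above background everywhere and 2 with slide as a block. Fibre membrane calls were 11, 7 with median scaling, 7 with normexp, 5 without a filter and 3 with slide as a block. Normexp gave -2.02 for Lim2, 2.63 for Emp1, -0.13 for Emp2 and 0.58 for Pmp22. Quantile normalization gave 0.29 for Emp2 and 0.64 for Pmp22, and the mean of a gene's probes -0.12 and 0.020. Leaving out 1 array gave 1538 to 5661 genes, 3 to 10 superfamily, 3 to 4 partner and 5 to 14 fibre membrane calls, -2.52 to -2.15 for Lim2, 5.54 to 6.11 for Emp1, -0.023 to 0.083 for Emp2, 0.51 to 1.29 for Emp3 and 0.22 to 0.32 for Pmp22. Without wild type replicate 3 the count over all genes was 5661 (43.3% of those tested). Whether arrays numbered 1 and 2 in both genotypes pair is not known. Their deviations correlated at 0.168 and -0.216, but deviations from the mean of only 3 arrays cannot settle it. With the replicate number as a block, 5446 genes (42.6% of those tested), 11 superfamily and 7 partner genes were called and Emp3 was 0.13. Wild type array 3 was the only array of its scan day, so the day block gave it no weight in the differences. The day block and leaving out that array thus gave each member the same difference (-2.39 for Lim2) and are not separate checks of it. Replicate numbers 3 and 4 each occur in 1 genotype, so the block for replicate number rests on arrays 1 and 2 alone. The cause of these shifts was otherwise not tested. Signal over background limits Emp1, P2rx7, Cav2 and Cldn23, which have only bounds.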

Other observations

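Birc7, an inhibitor of apoptosis proteins used here as a fibre cell marker, fell by 5.24 on the log2 scale in knock-in lenses (limma adjusted p = 5.64e-05), with -0.41, -0.50 and 0.34 on knock-in arrays 1, 2 and 4 and 5.05, 5.09 and 5.02 on wild type arrays 1, 2 and 3. Lenep, a small lens protein, fell by 3.23 (limma adjusted p = 0.000308). S100b, a calcium-binding protein of glia, rose to a level higher by at least 4.39-fold in the knock-in (limma adjusted p = 0.00116), with no wild type spot well above background. It passed the filter through its knock-in arrays alone, so this p-value rests on wild type values that were not measured. limma called 0 of 4 tested markers of vascular endothelium (1 at an unadjusted p under 0.05), where 25.9% of all genes were called. Pecam1 and Kdr were called lower when the scan day was a block (adjusted p = 0.00792 and 0.0102), as were 24.0% of all genes. Among markers of ciliary body, iris and pigment epithelium, limma also called 0 of 4 tested (2 at an unadjusted p under 0.05).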
